A study of Mus musculus with 16 samples.

Results

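Regions of acetylated RNA that recurred in the livers of lean mice and were not called in any liver of db/db mice were described. Peaks of 8 lists were merged where they shared at least 1 bp, and a merged region was taken where it held a peak in 3 or 4 of the lean lists C5, C6, C7 and C8 and in none of the db/db lists db1, db2, db4 and db5. This rule gave 604 of 25437 merged regions, of which 180 were in all 4 lean lists and 424 in 3. The study immunoprecipitated RNA carrying N4-acetylcytidine (ac4C) from the livers of male mice, with 4 immunoprecipitates and matching inputs for each group. The lean group is labelled as strain C57BL/6 and the other as strain db/db, which lacks a working leptin receptor and becomes obese and diabetic. No drug or diet is named for either group, and age and pooling of animals are not given in the sources used here. The lists were mapped to groups and not to numbered samples, since C5 to C8 and db5 are not among the sample titles. C was read as the control, the lean group.

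ac4C is an acetylated form of cytidine that the enzyme NAT10 writes on ribosomal RNA, transfer RNA and, at lower abundance, on messenger RNA. On messenger RNA it has been linked to transcript stability and to translation, with different effects reported in the coding sequence and near the start of the transcript. Immunoprecipitation with an antibody to ac4C pulls down RNA fragments around such sites, and a peak caller then reports stretches where fragments pile up above a background. A missing peak means only that the caller reported none, which depends on transcript level and depth as well as on acetylation. Fewer cells of a type and less RNA per cell cannot be told apart in whole liver.

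Several of the regions covered the first bases of their gene, so the RNA sequence there can be shown. In all, 101 of the 604 regions (16.7%) spanned the first 30 bases after a RefSeq start, beside 10.7% of db/db-only regions, 22.7% of regions in all 8 lists and 10.5% of all merged regions. The sequences of 6 genes named in the results with such a region are given from the RefSeq table of build GRCm38.p6, 5′ to 3′ on the gene's strand, as DNA letters with every cytidine in capitals, since cytidine is the base that can be acetylated. For Polg and Rhbdd3 the RefSeq start lies inside the gene bounds. Ptprf, Rhbdd3, Gbe1 and 1810013L24Rik were called in all 4 lean lists, and Polg and Elovl5 in 3.
Ptprf (chr4:118291368-118291397, minus strand): gggCgCgCgCggCtggagCtggCgCgggag
Rhbdd3 (chr11:5099273-5099302, plus strand): gtgagCgagggttaCCCaCgaaCCCgagag
Gbe1 (chr16:70313949-70313978, plus strand): agggCtCCaggggCCggCCCCgtgagtggg
1810013L24Rik (chr16:8830100-8830129, plus strand): gaggCgtCgaCgCCgCCgCCgtagaCgaCg
Polg (chr7:79466244-79466273, minus strand): attggCggCgCtCttattggaCgCtCgggg
Elovl5 (chr9:77917365-77917394, plus strand): ttgtgaCgtCaCggtCagCCCaCgCCgggg
These 30 bases held 8 cytidines in Ptprf and Rhbdd3, 9 in Gbe1, 11 in 1810013L24Rik, 7 in Polg and 10 in Elovl5. Over the first 50 bases, the median cytidine content was 30% in the 101 lean-only regions, 30% in 91 db/db-only regions of the same kind, 32% in 359 regions called in all 8 lists and 26% over the 27025 RefSeq genes with a start window. The spaced cytidine motif reported for ac4C sites, 4 cytidines with NN between each and the next, was searched in these 50 bases on the gene's own strand, and a window was counted once however many matches it held. It occurred in 26.7% of these lean-only windows, 38.5% of the db/db-only windows, 39.8% of the windows of regions in all 8 lists, 35.9% of the 2679 such windows of all merged regions and 22.7% of all RefSeq start windows. Among the lean-only windows in all 4 lists it occurred in 11 of 28 (39.3%). A match is a description of these letters and not a site.

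The 604 lean-only regions were 2.37% of all merged regions, the 180 in every lean list were 0.708% and the 424 in 3 lists were 1.67%. The mirrored rule, 3 or 4 db/db lists and no lean list, gave 854 regions (3.36%), with 217 (0.853%) in all 4. The counts follow from the rule and carry no test. Read within recurrence, 604 of the 4977 regions in 3 or 4 lean lists (12.1%) had no db/db peak, and 854 of 5258 regions in 3 or 4 db/db lists (16.2%) had no lean peak. The db/db lists were longer, with 8212 to 9754 peaks against 7583 to 8503. With 7583 peaks of highest score taken from each list the order turned, to 655 lean-only and 619 db/db-only regions. With a score of at least 50 there were 228 and 232. Leaving out a lean list while still asking for 3 lean peaks gave 260 regions without C5, 288 without C6, 278 without C7 and 318 without C8. Leaving out a db/db list changed the mirrored count to 454 without db1, 339 without db2, 330 without db4 and 381 without db5.

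**Figure D1:**
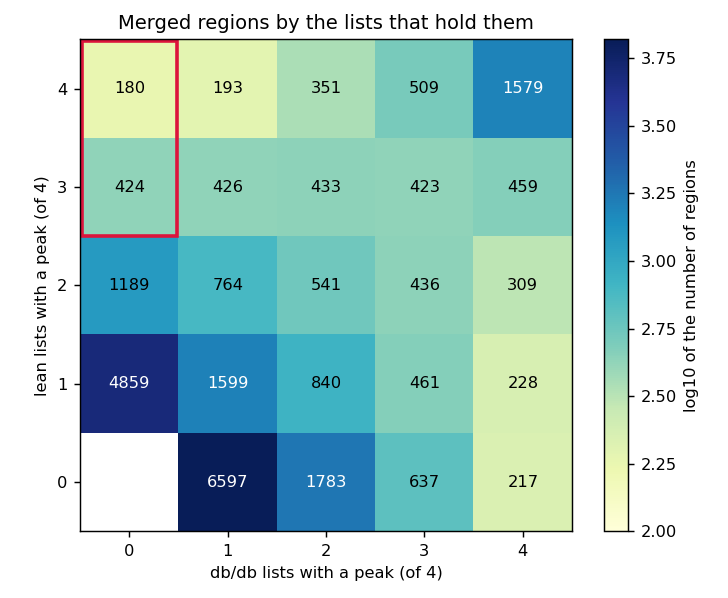
Number of merged regions for each combination of lean lists (vertical axis, 0 to 4) and db/db lists (horizontal axis, 0 to 4) with a peak, shaded by the decimal logarithm of the number. The outlined cells are the 180 and 424 lean-only regions, and the top right cell holds the 1579 regions of all 8 lists.

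Just outside the rule lay 1189 regions in 2 lean lists and no db/db list and 619 regions in 3 or 4 lean lists and 1 db/db list. The median fold enrichment of the lean peaks, the authors' linear ratio of immunoprecipitate to background, was 3.58 in the former, 3.84 in the 424 regions of 3 lean lists, 4.22 in the 180 regions of 4 lean lists and 4.10 in the 619 regions with 1 db/db peak. That single db/db peak had a median fold of 3.73. Lean lists missed a peak unequally among the 424 regions, with 80 lacking it in C5, 108 in C6, 98 in C7 and 138 in C8. C8 was also the shortest list.

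The lean-only regions were of middling strength. In C5, C6, C7 and C8 the median fold of their peaks was 3.96, 4.16, 3.86 and 3.76, beside 4.03, 4.18, 4.10 and 4.06 over all peaks of those lists. The peaks of regions shared by 3 or 4 lists of each group had medians of 5.49, 5.57, 5.30 and 5.36 in the same lists. Lean-only peaks thus stood near the middle of each list and below the shared regions in each. Weak peaks meet the demand for no db/db call more readily, so this order may follow in part from the rule. That part was not tested. The peak score, which is log10 of the p-value multiplied by −10, ranked in the same way. Its mean percentile within the lists had a median of 45.0 in the 604 regions, 51.4 in the 180, 41.5 in the 424, 45.7 in the 854 db/db-only regions and 71.1 in the 2970 shared regions. Every lean list with a peak reached a fold of 4 in 111 of the 604 regions (18.4%), and no list did in 138 (22.8%). Every list reached a score of 50 in 28 regions (4.64%), against 38.1% of the shared regions. A false discovery rate of 100% stood beside all but 1 of the 1993 lean-only peaks, as it did beside 99.2% of all 68356 peaks.

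**Figure D2:**
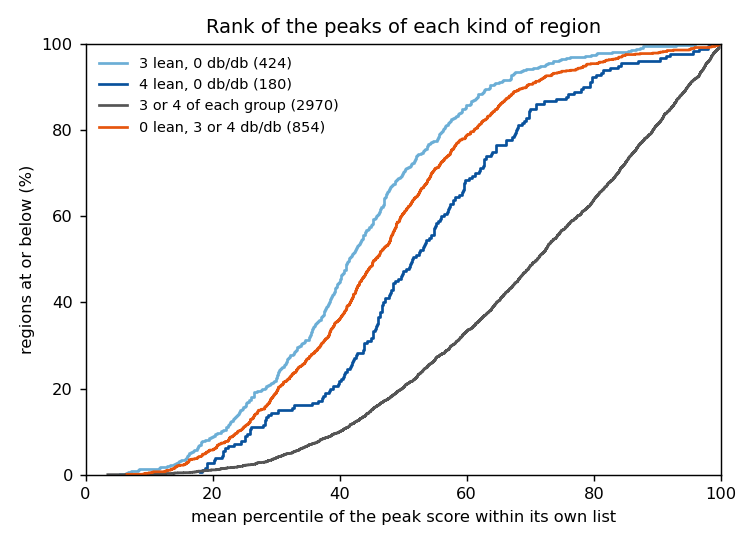
Cumulative share of regions (vertical axis, percent) against the mean percentile of the peak score within its own list (horizontal axis), for 424 regions in 3 lean lists, 180 in 4 lean lists, 854 in 3 or 4 db/db lists only, and 2970 in 3 or 4 lists of each group. The 3 group-only curves lie left of the shared regions, with medians of 41.5, 51.4 and 45.7 against 71.1.

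The share of lean-only regions near the 5′ end of their gene was above that of db/db-only regions and close to that of other recurrent lean regions. Strand and gene bounds were at hand for 461 of the 604 regions, and 122 of them (26.5%) had their 5′ edge within 500 bp of the gene's annotated start. The share was 24.0% in the regions of 4 lean lists, 13.9% in 656 placed db/db-only regions, 25% in 472 regions of 3 or 4 lean lists and 1 db/db list, 26.5% in 2374 regions of 3 or 4 lists of each group, 28.9% in 1271 regions of all 8 lists and 15.1% in 19904 placed regions of any kind. Regions within 500 bp of the gene's end were few in both groups, 3.69% and 3.35%. The gap between the groups moved with the strength of the peaks. With a score of at least 50 the shares were 30.2% of lean-only and 26.8% of db/db-only regions, at a minimum fold of 4, 29.96% and 19.2%, and with equal numbers of peaks 25.2% and 15.3%. Regions of the same lists are not replicates, so these shares carry no test. Exon and intron annotation was not used here.

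**Figure D3:**
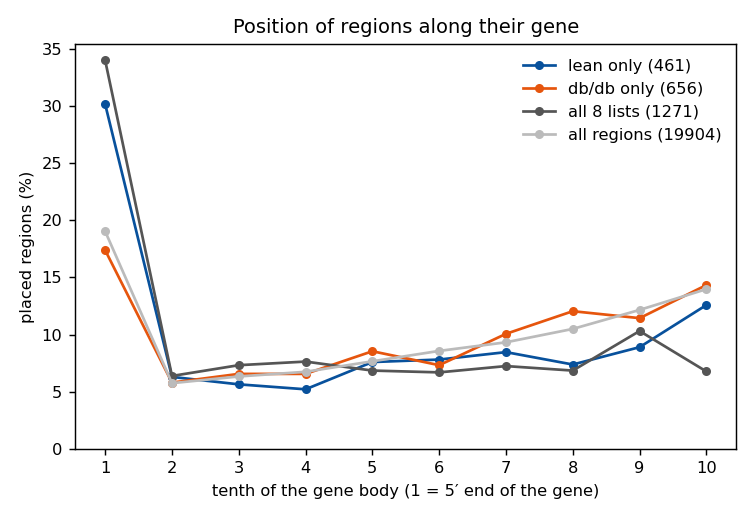
Share of placed regions (vertical axis, percent) in steps of 10% of the gene body from the 5′ end (horizontal axis), for 461 lean-only, 656 db/db-only, 1271 regions of all 8 lists and 19904 regions of any kind. In the first 10% lie 30.2% of lean-only, 17.4% of db/db-only, 33.99% of the regions of all 8 lists and 19.0% of all regions.

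Whether the lists differ in this respect was tested on peaks outside the lean-only and db/db-only regions, with lists as the unit. In C5, C6, C7 and C8, 21.5%, 23.2%, 20.4% and 19.5% of the remaining placed peaks lay within 500 bp of the gene start, and in db1, db2, db4 and db5 the shares were 17.2%, 18.3%, 18.2% and 19.7%. The groups overlapped, since db5 stood above C8. The means of 21.1% ± 1.63 and 18.4% ± 1.03 (SD, n = 4 lists each) did not differ past the threshold (two-sided exact permutation p = 0.0571, adjusted p = 0.0571). With all peaks included the shares no longer overlapped, 19.7% to 23.6% in lean and 17.1% to 19.2% in db/db lists (exact permutation p = 0.0286, adjusted p = 0.0381), but that test holds the regions chosen by the rule. Without C8, the lean list of lowest share, the difference on the remaining peaks was 3.31 percentage points and passed before adjustment (exact permutation p = 0.0286). It did not pass when any other list was left out. The exact permutation p was then 0.0571 without db5, 0.0857 without C5, C6, C7, db2 or db4, and 0.114 without db1. Nor did it pass with a fold of at least 4 (exact permutation p = 0.0571). With a score of at least 50 or equal numbers of peaks the exact permutation p was 0.114 each.

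Peaks of lean lists were also wider. Outside the group-only regions the median width was 186, 194, 187 and 183 bp in C5, C6, C7 and C8 and 178, 180, 181 and 178 bp in db1, db2, db4 and db5. Every lean list lay above every db/db list, with means of 187.5 ± 4.65 and 179.2 ± 1.5 bp (SD, n = 4 lists each, two-sided exact permutation p = 0.0286, the smallest the design allows, adjusted p = 0.0381 over 4 tests). The 4 tests include those on all peaks, which hold the regions chosen by the rule and lower the adjusted p. The call was lost with a fold of at least 4 (exact permutation p = 0.0571), with a score of at least 50 (exact permutation p = 0.0857) and with equal numbers of peaks (exact permutation p = 0.114), and without db1, db2, db4 or db5 in turn, where the lean lists still lay above the other 3, the exact permutation p was 0.0571 each time. The lean-only regions had a median width of 195 bp, and the db/db-only regions 164.5 bp, beside 176 bp over all regions and 206 bp over regions of all 8 lists. The part of depth in the widths was not tested.

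**Figure D4:**
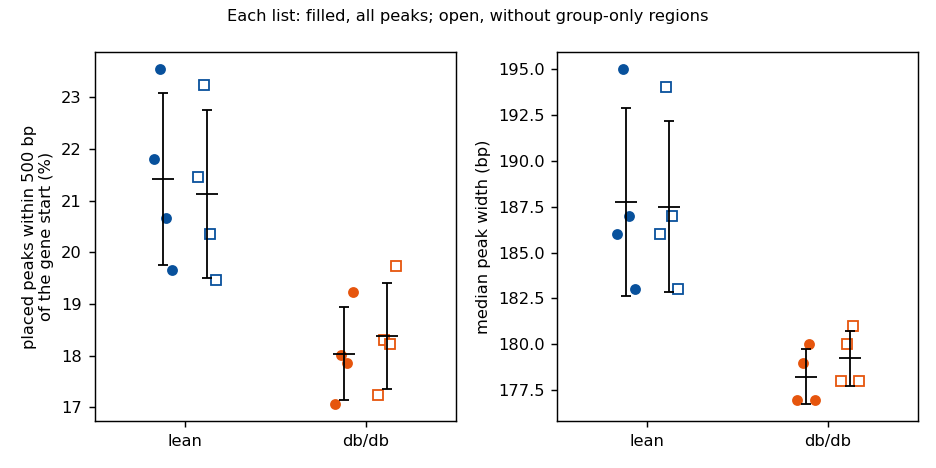
Share of placed peaks within 500 bp of the gene start (left, percent) and median peak width (right, bp) in each of the 4 lean and 4 db/db lists. Filled circles are all peaks, open squares the peaks outside group-only regions, bars the mean and SD of 4 lists. The vertical axes do not begin at 0. Widths of lean lists (183 to 194 bp, open squares) lie above those of db/db lists (178 to 181 bp).

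Most lean-only regions lay in genes that had a peak elsewhere in db/db livers. The regions fell in 552 genes, 6.42% of the 8602 genes with any peak, against 744 genes (8.65%) for db/db-only regions. Regions in all 4 lists of their group fell in 173 genes (2.01%) for lean and 206 genes (2.39%) for db/db livers. For 470 of the 604 regions (77.8%) at least 1 db/db list had a peak elsewhere in the same gene, and for 264 (43.7%) all 4 db/db lists did. For the remaining 134 regions (22.2%) no db/db list held a peak of the gene. Among the 180 regions of 4 lean lists the corresponding numbers were 137, 74 and 43. The nearest db/db peak of the gene was at a median distance of 4922.5 bp, within 1000 bp for 60 regions and within 200 bp for 6. In the mirrored set 626 of 854 regions (73.3%) had a lean peak elsewhere in the gene. No such share was taken over all merged regions. Genes with a lean-only region held a median of 4 merged regions, against 2 over all genes, and the shares were not adjusted for it. They are therefore not read as particular to the lean-only regions.

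Leaving aside predicted genes and pseudogenes, the region of highest rank by fold in all 4 lean lists was on Cyp3a41a, a cytochrome P450 gene with a near-identical neighbour, Cyp3a41b. Its region chr5:145699726-145699952 had folds of 13.88, 20.90, 27.40 and 21.46 in C5, C6, C7 and C8. Another region of 227 bp, named Cyp3a41a in the lists but lying in the bounds of Cyp3a41b (chr5:145564337-145564563), had folds of 11, 7.81, 15.17 and 5.8. Reads of the copies may not be separable, so which copy carries the signal is uncertain. The gene also had regions in 3 lean lists, one with folds of 5.27, 61.53 and 20.49 in C5, C6 and C7 (chr5:145694049-145694602) and one with folds of 6.59, 4.88 and 9.64 in the same lists (chr5:145709045-145709158). A single db/db list had any peak named Cyp3a41a.

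Ptprf, a receptor tyrosine phosphatase known to act on the insulin receptor, had its region at the annotated start of the gene (chr4:118291180-118291405). Its folds were 6.12, 15.05, 14.07 and 13.67 in C5, C6, C7 and C8, so C5 stood apart. All 4 db/db lists had a peak elsewhere in Ptprf, the nearest 6327 bp away. Sf3b4, a subunit of the SF3b splicing complex, had folds of 5.82, 7.2, 14.71 and 8.43 (chr3:96176979-96177564), highest in C7. Supt5, a transcription elongation factor, had folds of 4.06, 7.28, 9.05 and 7.51 (chr7:28329020-28329185), lowest in C5. Eif5, a translation initiation factor, was even across the lists, with folds of 7.38, 5.56, 7.22 and 6.63 (chr12:111539031-111539687). No db/db list had a peak of Sf3b4 or Eif5, and all 4 had one of Supt5.

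Adck3, a mitochondrial kinase-like protein of coenzyme Q synthesis, had folds of 7.31, 8.70, 10.16 and 7.61 in C5, C6, C7 and C8 (chr1:180182463-180182710), with a db/db peak 215 bp away. Adck3 also held a db/db-only region in 3 db/db lists, with a mean score percentile of 90.9, beside 92.0 for the lean-only region. Pik3ca, the catalytic subunit of phosphoinositide 3-kinase, had folds of 11.64, 4.59, 7.72 and 8.30 (chr3:32397671-32397800). C5 was highest for Pik3ca, and C6 lowest. Lactb, a mitochondrial protein related to beta-lactamases, had folds of 6.76, 6.71, 5.08 and 6.15 (chr9:66970582-66970936), and no db/db list held a peak of it. Sec24b, a cargo adaptor of the COPII coat, had folds of 6.56, 8.59, 6.66 and 4.12 (chr3:130040674-130041447). The chromatin genes Baz1a, a remodelling subunit, and Bbx, an HMG box protein, had folds of 4.64 to 7.03 (chr12:54930252-54930347) and 5.66 to 7.35 (chr16:50224297-50225293), and all 4 db/db lists had other peaks of both.

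The other genes of highest fold need caution over their annotation or identity. C1s2 encodes a protease of the complement system and resembles a neighbouring gene closely, so its reads may be shared; it had folds of 4.93 to 12.07 (chr6:124635482-124635689). Rhbdd3, a rhomboid-like protein, had folds of 5.74 to 8.83 (chr11:5098926-5099566) in a region that also overlapped Ewsr1. Dnali1, an axonemal dynein chain, had folds of 4.51 to 8.62 (chr4:125055338-125055806) and overlapped Gnl2. Without strand in the lists the partner of such a pair cannot be told. In all, 27 of the 604 regions (4.47%) overlapped a further protein-coding gene. Plac9a, a small secreted protein gene, had folds of 5.24 to 7.56 at chr14:26030529-26030623, which is outside the RefSeq bounds of the gene. That region overlapped Gm9780, so its gene is uncertain, and the nearest db/db peak named Plac9a was 139673 bp away. Catsper2, a sperm ion channel subunit, had folds of 4.61 to 10.22 (chr2:121397461-121397888).

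**Figure D5:**
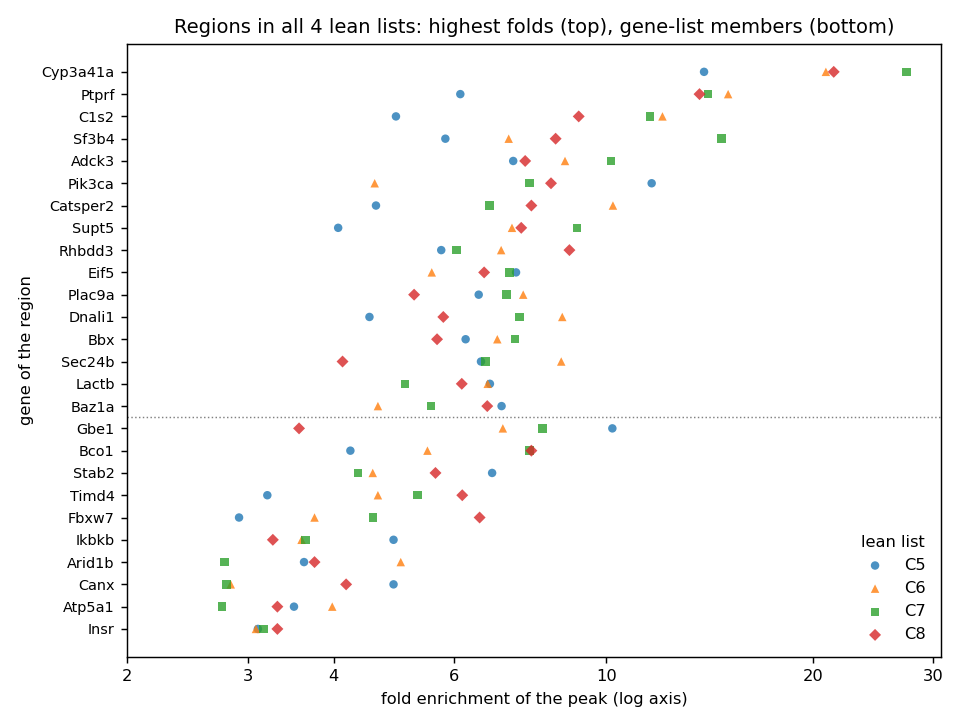
Fold enrichment (horizontal log axis) of regions in all 4 lean lists, 1 row per gene and 1 symbol per list. Above the dotted line are the 16 named regions of highest fold, led by Cyp3a41a at 13.88 to 27.40; below it are members of the gene lists, ending with Insr at 3.08 to 3.31.

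Among regions in 3 lean lists the highest mean percentile of fold within the lists belonged to Polg, the catalytic subunit of the mitochondrial DNA polymerase. Polg had folds of 12.03, 13.58 and 15.75 in C5, C6 and C7 and no peak in C8 (chr7:79466070-79466362). By the fold itself, the Cyp3a41a region with 61.53 in C6 was higher. All 4 db/db lists had a peak of Polg elsewhere, the nearest 698 bp away. Mettl7a2, a methyltransferase-like gene whose region also overlapped Methig1, had folds of 10.76, 8.44 and 10.43 in C5, C7 and C8 (chr15:100360934-100361840). R3hdm1, an R3H domain protein, had folds of 5.8, 7.47 and 10.67 in C5, C7 and C8 (chr1:128178883-128178991), with a db/db peak 95 bp away. R3hdm1 also held 2 db/db-only regions. Ybx3, a cold shock domain RNA-binding protein, had folds of 7.98, 6.50 and 6.53 in C5, C6 and C7 (chr6:131367765-131367863). All 4 db/db lists had other peaks of Mettl7a2 and Ybx3, the nearest 7222 bp and 525 bp away. Both genes also held a region called in all 8 lists. Rpl32, a protein of the large ribosomal subunit, had folds of 6.06, 8.21 and 6.91 in C6, C7 and C8 (chr6:115806986-115807167) and no db/db peak anywhere.

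Lists of 20 pathways were read against these regions. Of their 277 genes with a peak, 23 (8.30%) had a lean-only region, beside 6.42% over all genes, and 31 (11.2%) had a db/db-only region, beside 8.65%. More genes had lean-only than db/db-only regions in 7 pathways, fewer in 7 and equally many in 6. None of the listed genes had a lean-only region for the ac4C writer and nucleolar partners, bile acid and sterol genes, autophagy, matrix genes and secreted plasma proteins. This covers the listed genes alone: Atg14, an autophagy gene outside the list that was picked out after its values were seen, had a region in all 4 lean lists. Each pathway held 0 to 2 genes with a lean-only region. No pathway can be set apart from counts this small.

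In insulin signalling, 2 of 21 genes with a peak had a region in all 4 lean lists, Pik3ca and the insulin receptor Insr, a count too small to read against the 2.01% of all genes. The Insr region (chr8:3279029-3279617) had folds of 3.10, 3.08, 3.16 and 3.31 in C5, C6, C7 and C8, with the smallest SD among the named lean-only regions, and no db/db list held a peak of the gene. These folds were low, at a mean percentile of 22.0 within the lists. The Insr pattern was not kept with a fold of at least 4 or a score of at least 50. Mtor and Tsc1, kinase and brake of the growth pathway downstream, had db/db-only regions (2 of 21 genes, beside 8.65% of all genes). That of Tsc1 was in all 4 db/db lists and that of Mtor in 3. Mtor also had a region in all 8 lists, as did Irs2, Pik3r1, Akt1 and Ptpn1. In inflammation, Ikbkb, a kinase that frees NF-kappa B, had folds of 4.89, 3.59, 3.64 and 3.26 (chr8:22705828-22706204) at 1 site, and it carried a db/db-only region at another. Nfkb1, the precursor of an NF-kappa B subunit, had folds of 3.05, 3.38 and 4.21 in C5, C7 and C8 (chr3:135618804-135618967).

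Regions on listed genes of energy metabolism were few. Gbe1, the glycogen branching enzyme, had folds of 10.20, 7.06, 8.06 and 3.56 in C5, C6, C7 and C8, in a region that began at its annotated start (chr16:70313949-70314295). Atp5a1, a subunit of ATP synthase, had folds of 3.50, 3.98, 2.75 and 3.31 (chr18:77777519-77777688). Acaa2, a thiolase of fatty acid oxidation, had folds of 3.69, 3.41 and 2.88 in C6, C7 and C8 (chr18:74793287-74793403). None of these genes had a db/db peak, and none of the Atp5a1 and Acaa2 folds reached 4. The scores were higher in rank, at a mean percentile of 75.9 for Atp5a1 and 57.9 for Acaa2. In fat synthesis 2 genes of 20 had a lean-only region and 5 a db/db-only region, beside 6.42% and 8.65% of all genes. Elovl5, a fatty acid elongase, had folds of 4.6, 4.71 and 2.85 in C5, C7 and C8 at its start (chr9:77917364-77917526). Me1, the cytosolic malic enzyme, had folds of 4.12, 4.78 and 2.89 in C5, C6 and C7 (chr9:86613541-86613638). In retinoid metabolism, Bco1, which cleaves beta-carotene, had folds of 4.23, 5.48, 7.72 and 7.77 (chr8:117132974-117133711), and Cyp26b1, which breaks down retinoic acid, had folds of 4.39, 3.89 and 5.89 in C5, C7 and C8 (chr6:84573278-84573857). No db/db list held a peak of Bco1 or Cyp26b1.

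Genes of protein and RNA handling added further members. Canx, a chaperone of the endoplasmic reticulum, had folds of 4.89, 2.83, 2.79 and 4.17 in C5, C6, C7 and C8 (chr11:50311604-50311784) with scores of 133.39 to 271.75, so a high score stood beside a modest fold. Fbxw7, a substrate receptor of a ubiquitin ligase, had folds of 2.91, 3.75, 4.56 and 6.53 (chr3:84977273-84978251), and Psmd1, a proteasome subunit, 2.52, 2.78 and 2.58 in C6, C7 and C8 (chr1:86089994-86090190). Fbxw7 was highest in C8, and Psmd1 had a mean fold percentile of 6.05 within its lists. Sf3b2, a partner of Sf3b4 in the SF3b complex, had folds of 2.80, 2.95 and 2.68 in C5, C7 and C8 (chr19:5294299-5294376). All 4 db/db lists had other peaks of Canx, Fbxw7, Psmd1 and Sf3b2, the nearest 888 bp away for Fbxw7, 1073 bp for Psmd1 and 885 bp for Sf3b2.

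Among chromatin and transcription genes, Arid1b, a subunit of the BAF remodelling complex, had folds of 3.62, 5.01, 2.77 and 3.75 in the 4 lean lists (chr17:5327649-5327821). Tet2, which oxidises methylcytosine in DNA, had folds of 3.95, 4.82 and 4.29 in C6, C7 and C8 (chr3:133469276-133469767). Of 18 genes of nuclear receptors and coregulators with a peak, 2 had a lean-only region and 8 a db/db-only region, beside the same 6.42% and 8.65% of all genes. Rara, a retinoic acid receptor, had lean folds of 3.74, 3.85 and 3.36 in C5, C6 and C8 (chr11:98973420-98974942), and Ncoa1, a receptor coactivator, 5.04, 2.98 and 2.77 in C5, C7 and C8 (chr12:4339018-4339184). Both also held db/db-only regions at other sites. Per2, a repressor of the circadian clock, had folds of 3.95, 4.18 and 3.04 in C5, C6 and C7 (chr1:91450605-91450843). All 4 db/db lists had other peaks of Arid1b, Rara, Ncoa1 and Per2, and 3 had one of Tet2.

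Cell type markers were looked up in the same way. Hepatocyte markers with a peak numbered 2 of 10, and Alb, Ttr, Apoa1, Asgr1, Cyp2e1, Tat, Hpd and Serpina1a had none in any list, so these peak lists give no check of the tissue label. Per list, 0 to 1 of the hepatocyte markers had a peak in lean and 0 to 2 in db/db livers. Lean-only regions were found in 5 of 42 marker genes with a peak, from 3 of the 10 lists (11.9%, beside 6.42% of all genes), and db/db-only regions in 3 (7.14%, beside 8.65%). Timd4, a receptor of resident Kupffer cells, had folds of 3.20, 4.64, 5.30 and 6.16 in C5, C6, C7 and C8 (chr11:46817549-46817782) and no db/db peak. Stab2, a scavenger receptor of sinusoidal endothelium, had 1 region in all 4 lean lists with folds of 6.81, 4.56, 4.34 and 5.63 (chr10:86962671-86963221) and 1 in C5, C6 and C8 with folds of 3.20, 3.87 and 3.27 (chr10:86922867-86923003), while all 4 db/db lists had other peaks of the gene. Egfl7, a factor secreted by endothelium, had folds of 2.99, 4.88 and 3.42 in C5, C6 and C7 (chr2:26585585-26585675). Sox9 and Cdh1, taken from the bile duct list though Cdh1 need not be particular to those cells, also had lean-only regions. Their folds were 4.88, 4.34 and 3.21 (chr11:112782210-112783015) and 5.6, 4.13 and 3.76 (chr8:106649001-106649224), each in C6, C7 and C8. Cdh1 held 2 lean-only regions, of which this is 1, and neither was in all 4 lean lists. All 4 db/db lists had other peaks of Sox9 and none had one of Cdh1. Sinusoidal endothelial markers with a peak numbered 4 to 7 of 10 in lean and 2 to 7 in db/db lists, Kupffer markers 1 to 3 in both and bile duct markers 2 to 3 of 8 and 2 to 4. Stellate cell and fibroblast markers numbered 1 to 4 of 10 in lean and 4 to 6 in db/db lists, with a db/db-only region on Reln and no lean-only region. For the other 5 cell types, 0 to 2 markers had a peak in each peak list. The Kupffer markers Vsig4, Adgre1, Cd68 and C1qa, the endothelial marker Clec4g and the bile duct marker Krt7 had no peak in any list. The part of cell composition was not tested.

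A single region per gene was the rule, in 510 of 552 genes, with 2 regions in 36 genes and 3 or more in 6. Syne2, a giant protein that links the nucleus to the cytoskeleton, had 5 among 57 merged regions, beside 2 db/db-only regions, and 1 of the 5 was in all 4 lean lists with folds of 4.61, 7.43, 4.29 and 4.29 in C5, C6, C7 and C8 (chr12:76015482-76015712). C6 stood apart there. Smc6, a subunit of the SMC5/6 complex of DNA repair, had 3 regions, including folds of 4.02, 4.34, 7.91 and 4.62 (chr12:11299259-11299429) and 8.12, 3.96, 6.99 and 4.02 (chr12:11301522-11301667). Arid4a, a chromatin protein that binds the retinoblastoma protein, also had 3, with folds of 5.93, 6.12, 3.50 and 3.32 (chr12:71063093-71063324) and 3.95, 3.72, 3.86 and 3.21 (chr12:71087461-71087607) in the 2 regions of all 4 lists. Ktn1, the kinesin receptor kinectin, had 3 narrow regions of 69 to 88 bp, each in C5, C6 and C7. The genes Smc6, Arid4a and Ktn1 held 16, 14 and 20 merged regions and no db/db-only region. All 4 db/db lists had further peaks of Syne2, Smc6, Arid4a and Ktn1.

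Neb, which encodes the muscle protein nebulin, had 4 lean-only regions of exactly 312 bp among 37 merged regions, and 1 db/db-only region. Those in all 4 lean lists had folds of 3.19, 3.25, 3.86 and 5.63 (chr2:52258593-52258904) and 3.11, 5.11, 4.82 and 4.42 (chr2:52271299-52271610). Nebulin is known for internal repeats. Whether reads are shared between these regions was not tested, so their calls are uncertain.

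Of the 552 genes, 59 (10.7%) also held a db/db-only region, beside 8.65% of all genes with a peak. Of the 173 genes with a region in all 4 lean lists, 3 (1.73%) held one in all 4 db/db lists, beside 2.39%. Genes with a lean-only region held a median of 4 merged regions, against 2 over all genes, and the shares were not adjusted for this. Baz2b, a bromodomain protein, had lean folds of 5.71, 4.64, 4.10 and 4.02 at chr2:59942938-59943030 and db/db folds of 5.89, 6.91, 10.55 and 6.00 in db1, db2, db4 and db5 at chr2:59961884-59962630, the one of its 2 db/db-only regions that was in all 4 lists. Gtf2f1, a subunit of the general transcription factor TFIIF, had lean folds of 3.90, 4.03, 2.59 and 3.77 (chr17:57005360-57005544) and db/db folds of 3.07, 3.99, 3.39 and 5.54 (chr17:57009688-57009760). Kif13a, a kinesin motor, had a lean region with folds of 3.29, 3.25, 3.13 and 2.41 (chr13:46815210-46815422), another with folds of 3.9, 3.72 and 3.09 in C5, C6 and C8 (chr13:46752081-46752955), and 2 db/db regions with folds of 3.46 to 5.11 and 2.73 to 3.86. Counted from the 5′ end, the lean region of Gtf2f1 lay 74.3% along the gene and the db/db region 20.9%. In Kif13a the lean regions lay at 63.4% and 98.1% and the db/db regions at 79.96% and 83.5%. In Baz2b the lean region lay at 85.95% and that db/db region at 79.75%. The lean sites thus lay on both sides of the db/db sites in Kif13a. A region called in all 8 lists was also held by 92 of the 552 genes (16.7%), beside 13.1% of all genes with a peak, with the same difference in regions per gene.

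Width and gene type set a few members apart. Lean-only regions ran from 25 to 3252 bp, and 23 (3.81%) were over 1000 bp, beside 4.02% of all regions. The broadest was on Nhsl1, a gene related to that of Nance-Horan syndrome, with folds of 6.73, 3.33 and 3.58 in C6, C7 and C8 (chr10:18523791-18527042). The next were on C130074G19Rik with 2502 bp and on Gcc2, a golgin of the trans-Golgi, with 2445 bp, each in 3 lean lists. Protein-coding genes held 587 of the 604 regions (97.2%, against 97.5% of all regions), and pseudogenes held 7. Rps18-ps3 had folds of 12.74, 21.47, 16.47 and 17.07 in C5, C6, C7 and C8 (chr8:107262817-107263248), and Rps2-ps6 and Tpm3-rs7 had 5.57 to 10.98 (chr14:76236941-76237353) and 4.16 to 7.90 (chr14:113314608-113316238). Reads of the parent genes can be placed on such copies, so these calls are uncertain. The region on 1810013L24Rik, whose start is shown above, had folds of 4.91, 6.92, 5.53 and 4.84 (chr16:8830100-8830685).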

How the data were processed

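Peak lists of 8 immunoprecipitates from whole mouse liver were analysed, 4 per group. The submitters' processing notes name cutadapt 1.9.3, HISAT2 2.0.4 and the build mm10. Peak names in the deposited lists point to MACS, whose version and control are not given in the sources used here. The deposited score is log10 of the p-value multiplied by −10. The deposited fold is a ratio on a linear scale, and the authors gave the false discovery rate in percent. No counts were used here, so the depth of each list is unknown and intervals for counting error are left out. The lowest fold was 2.0 and the lowest score 13.02. Starts were taken as 0-based, since 2127 peaks begin at their RefSeq gene's start in that counting and 70 in the other, and are printed 1-based.

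Regions were merged in Python 3.11.15 with pandas 2.3.3, checked on simulated lists. A fold or score of a region is its highest peak per list. Percentiles were taken within a list. Gene IDs of 98.0% of peaks matched the RefSeq table of GRCm38.p6, and strand came from its start windows. Alternatives were a fold of at least 4, a score of at least 50, equal numbers of peaks, 2 other ways of merging and leaving out lists. Position and width per list were tested after the data had been examined, by a two-sided exact permutation test over 70 arrangements of lists, with Benjamini-Hochberg adjustment over 4 tests. With a list left out the groups are unequal and the arrangements fewer, so a change in p need not mean a change in separation. The p-values of the alternatives were not adjusted. Whether lists are separate animals is not stated, so p-values measure the spread between lists, which may be technical. The members and gene lists were chosen with earlier results of these data known. Genes were named by rule: the 16 regions in all 4 lean lists and the 6 in 3 lists with the highest mean percentile of fold, without predicted genes and 1 region a gene; members of 20 pathway and 10 cell type lists; genes with 3 or more regions; the 3 broadest regions; 4 regions of predicted genes or pseudogenes; and genes with regions of both kinds in all 4 lists.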

Additional observations from a re-analysis of the deposited data

Results flagged for a closer look

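The folds of 41 named regions in all 4 lean lists were examined for a list far from the other 3, and 3 regions held one. At the 95% confidence used, about 1 in 20 would be flagged by chance among normally spread values. Whether that rate holds for these folds was not tested. The Ptprf region at the start of the gene had its low value of 6.12 in C5. The Smc6 region at chr12:11299259-11299429 had its high value of 7.91 in C7. The Syne2 region at chr12:76015482-76015712 had its high value of 7.43 in C6.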

How the results depend on the processing

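The counts depended on the strength asked of a peak. With a fold of at least 4 there were 333 lean-only regions, 84 in all 4 and 249 in 3 lean lists, and 443 db/db-only regions. With a score of at least 50 these were 228, 60, 168 and 232. Other merging rules gave 604 and 605 lean-only regions, and equal numbers of peaks gave 655. Like totals do not mean the same members. Merging peaks up to 100 bp apart joins the R3hdm1 region to a db/db peak 95 bp away, so it is then not lean-only. The other named regions were not followed through the merging rules. Leaving out each list in turn, with 3 lists still required, gave 260 to 785 lean-only regions, 505 to 552 in 3 lean lists and 330 to 1040 db/db-only regions. In every remaining lean list there were 216 to 318. Leaving out a list removes or relaxes a condition of the rule, which by itself moves the counts. The share of db/db-only regions near a gene start moved to 19.2% with a fold of at least 4 and 26.8% with a score of at least 50. For peaks outside group-only regions, the difference in the share near a gene start was 2.05 to 3.31 percentage points when lists were left out and 3.39 with all peaks. The difference in median width was 6.08 to 9.75 bp when lists were left out, 7.38 with a fold of at least 4, 8.62 with a score of at least 50 and 6.25 with equal numbers of peaks. The cause was not tested. Of 77 named lean-only regions, 33 kept their pattern with a fold of at least 4, 15 with a score of at least 50 and 70 with equal numbers of peaks. Of the 16 of highest fold, 16, 6 and 14 did, and of 29 in gene lists, 6, 4 and 28. Merging on exon blocks was not run, since the lists give none. No paired analysis was possible because the lists carry no replicate numbers that match the samples.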
